A study of Mus musculus with 10 samples.

Results

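The antioxidant enzymes and thioredoxins described here are 10 genes (Sod1, Sod2, Cat, Gpx1, Prdx1, Prdx5, Txn1, Txnl1, Txnrd1 and Gsr) of the 29893 genes measured. The genes were chosen by symbol and matched to the authors' deposited comparison tables, and the estimated counts and TPM of all transcripts of a gene were summed in each library. TPM is a level per length, scaled to the same total in each library. No threshold on a measured value enters that rule, but the list was drawn up with levels, differences and p-values of these data in view, among them those of Txnl1 in the neutrophil tumour comparison. The levels and differences of the 10 genes are therefore given as a description, and the calls named for them are part of it. None was lost to the filter on low counts, so all 10 appear in each comparison.

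The material was lung neutrophils and lung CCR2+ monocytes, sorted by flow cytometry from NOD/scid mice (a strain without mature T and B cells) that carried a tumour to end point. In TN1 mice the tumour was HCl-001, which is described as highly metastatic, and in TN2 mice it was HCl-002, described as low metastatic. TN1 gave 2 libraries per cell type (tag_191 and tag_482) and TN2 gave 3 (tag_367, tag_706 and tag_1341), in all 10 libraries in 4 groups. No mice without a tumour are among them, and age, sex and treatment are not given in the sources used here. Nothing states that a tag is an animal of its own, so each p-value below measures the spread between these samples, which may be technical.

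Superoxide, made by the respiratory chain and by the phagocyte NADPH oxidase, is converted to hydrogen peroxide by superoxide dismutases. Catalase, glutathione peroxidases and peroxiredoxins then reduce the peroxide. Glutathione peroxidases draw their electrons from glutathione, kept reduced by glutathione reductase, and most peroxiredoxins draw theirs from thioredoxin, kept reduced by thioredoxin reductase. Both reductases use NADPH. Neutrophils and monocytes make large amounts of these oxidants against microbes, and many of the enzyme genes are targets of the transcription factor NRF2 (gene Nfe2l2), which binds antioxidant response elements.

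The libraries held 7239218 to 11311370 estimated counts, with 8851 to 15211 genes at 5 or more. All 8 neutrophil markers (Csf3r, Ly6g, S100a8 and others) were present in every neutrophil library and summed to 129372 to 203251 TPM there, against 179.5 to 8140 TPM in monocytes, where Ly6g was at 0 in TN1 tag_482. All 8 monocyte markers were present in every monocyte library and summed to 19605 to 51862 TPM. In neutrophils all 8 were also present in every library and summed to 3264 to 10143 TPM. Some libraries stood apart. Monocyte library TN2 tag_706 had the highest neutrophil sum of the monocyte libraries (8140 TPM), with endothelial (1247 TPM), alveolar macrophage (756 TPM) and epithelial (457 TPM) markers, and monocyte library TN1 tag_482 held 446 TPM of erythroid markers and 19.9% of its TPM on mitochondrially encoded genes. Neutrophil library TN2 tag_1341 had the highest monocyte sum of its cell type. In such sorted bulk samples fewer cells of a type and less RNA per cell cannot be told apart.

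Sequence upstream of a start site was read for members that differed between the cell types, to show where the letters of an antioxidant response element occur. The RefSeq promoter table (GRCm38.p6) held 8 of the 10 genes, in 10 windows of 250 bases before the start, and lacked Gsr and Txnl1. The core TGACNNNGC was searched on both strands and was found in 3 of these genes, Prdx1, Txnrd1 and Sod1. It occurs in 10.2% of all 32851 windows of that length. Each sequence below runs 5′ to 3′ and ends where a protein-coding exon is annotated, and capitals mark the core and, in Prdx1, also the AP-1 letters TGANTCA, which occur in 6.75% of the windows.
Prdx1, chr4:116685349-116685543 (+ strand): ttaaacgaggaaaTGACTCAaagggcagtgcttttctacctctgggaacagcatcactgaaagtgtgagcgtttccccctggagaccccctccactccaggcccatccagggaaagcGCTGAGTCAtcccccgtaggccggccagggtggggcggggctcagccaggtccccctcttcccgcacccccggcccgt
Txnrd1, chr10:82858956-82859178 (+ strand): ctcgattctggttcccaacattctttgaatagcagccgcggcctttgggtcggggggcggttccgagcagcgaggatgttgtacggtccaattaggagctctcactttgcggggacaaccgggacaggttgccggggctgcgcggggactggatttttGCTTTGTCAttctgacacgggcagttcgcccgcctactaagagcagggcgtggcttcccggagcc
Sod1, chr16:90220512-90220753 (+ strand): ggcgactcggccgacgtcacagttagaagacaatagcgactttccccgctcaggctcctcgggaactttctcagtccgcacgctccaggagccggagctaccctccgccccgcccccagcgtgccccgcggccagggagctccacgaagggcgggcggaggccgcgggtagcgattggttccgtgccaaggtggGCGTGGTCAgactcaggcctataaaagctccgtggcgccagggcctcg
The core lay at -133 to -125 in Prdx1, at -92 to -84 in Txnrd1 and at -56 to -48 in Sod1, counted back from the RefSeq start. TGANTCA lay at -237 to -231, apart from the core, and at -131 to -125, within it, in Prdx1 and in no other member's window. A match is a run of letters and does not show that a factor binds there. The 3 genes do not share a direction between the cell types: Prdx1 and Sod1 were higher in monocytes and Txnrd1 lower, as given below.

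The first comparison, monocytes against neutrophils over both tumours (5 libraries each), describes the levels of the genes in the cell types. In monocytes Prdx1, Cat, Sod1 and Gpx1 were at higher levels. In neutrophils Sod2, Prdx5, Txn1, Txnl1 and Txnrd1 were higher in normalised counts. Direction did not follow location in the cell, as mitochondrial Sod2 was lower and mitochondrial Txn2, given below, higher in monocytes. Among cytosolic enzymes Prdx1 and Sod1 were higher and Txn1 and Txnrd1 lower. With edgeR's quasi-likelihood test (adjusted p below 0.05), 4 of the 10 genes were called higher and 5 lower in monocytes, where 27.9% of the 13384 genes tested were called in either direction (15.5% higher and 12.4% lower). The groups did not overlap in CPM (counts scaled to library size) for 3 genes that were higher and 4 that were lower, where 28.5% of all genes did not overlap (16% higher and 12.6% lower). Because the list was drawn up with results of these data known, no test is attached to these counts. The median log2 difference of the 10 genes was -0.81, beside 0.46 over all genes.

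Scale matters here. The median lay at 0.46 over the 13384 genes tested in counts. On the log2(TPM + 1) scale it lay at 0.80 over the 11667 genes with a mean of at least 1 TPM. The gene sets differ as well as the scale. Log2 differences below are monocytes minus neutrophils in counts, with the standard error (SE) of the edgeR model, and those in TPM come from limma on log2(TPM + 1). All 10 genes kept the same sign in the settings tried. The plot of levels shows the TPM of each gene in each library.

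**Figure D1:**
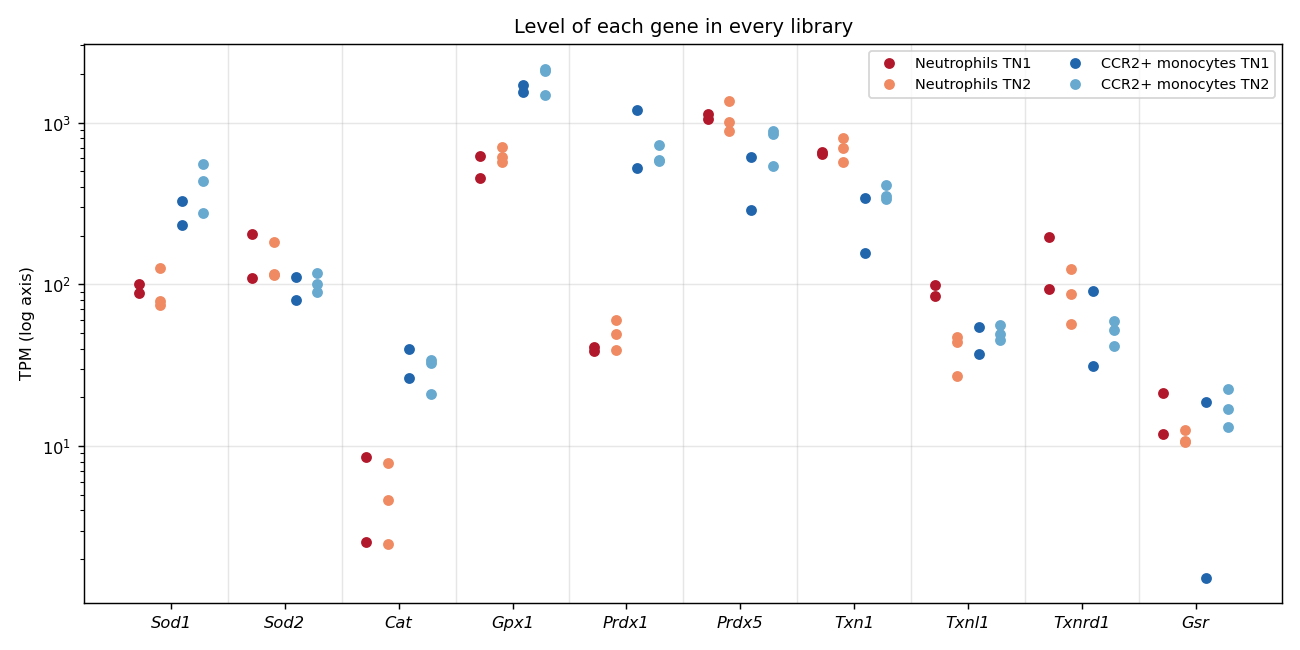
TPM of the 10 genes (log axis) in the 10 libraries, 1 point per library, coloured by cell type and tumour. Prdx1 shows the widest gap, with neutrophil libraries at 38.8 to 60.1 TPM and monocyte libraries at 521 to 1196 TPM, and the Txnl1 points of TN1 neutrophils lie above those of TN2 neutrophils.

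The superoxide dismutases differed in opposite directions. Sod1, the copper-zinc enzyme of the cytosol (chromosome 16, 90220754 to 90226329, GRCm38), was at 87.9 and 99.99 TPM in TN1 neutrophils and at 79.1, 126 and 74.1 TPM in TN2 neutrophils. Monocytes had 329 and 232 TPM with TN1 and 437, 557 and 276 TPM with TN2. Every monocyte library was above every neutrophil library. Sod1 differed by 1.10 ± 0.28 (log2, SE), or 0.64 above the median of all genes. The call was lost without neutrophil library TN1 tag_191 (1.05 ± 0.34) and without monocyte library TN1 tag_191 (0.99 ± 0.33) or TN2 tag_367 (0.97 ± 0.31).

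Sod2, the manganese enzyme of the mitochondrial matrix and a gene induced by NF-kB (chromosome 17, 13006846 to 13040063), was at 204 and 110.1 TPM in TN1 neutrophils and at 115, 182 and 113 TPM in TN2 neutrophils. Monocytes had 111 and 80.5 TPM with TN1 and 90.1, 101 and 117 TPM with TN2. On the TPM scale the cell types overlapped, and the log2 difference of -0.52 ± 0.25 was not called. In CPM they did not overlap, with 428 to 845 in neutrophils and 207 to 293 in monocytes. The log2 difference in counts was -1.33 ± 0.26. Against the median of the genes tested on each scale the difference was -1.80 in counts and -1.32 in TPM. Within a library Sod2 exceeded Sod1 by 1.10 to 2.32 times in neutrophils, whereas Sod1 exceeded Sod2 by 2.35 to 5.54 times in monocytes. This ratio of TPM values does not depend on how libraries are scaled to each other, and its order was the same in each of the 5 libraries of a cell type.

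The genes of glutathione peroxidase and catalase were both higher in monocytes. Gpx1, the selenium-containing glutathione peroxidase of the cytosol (chromosome 9, 108338903 to 108340343), was at 453 and 622 TPM in TN1 neutrophils and at 567, 617 and 705.7 TPM in TN2 neutrophils. In monocytes it was at 1713 and 1552 TPM with TN1 and at 2134, 1472 and 2094 TPM with TN2. It was the most abundant of the 10 genes in each monocyte library, and the cell types did not overlap in TPM. In CPM they did overlap, with 430.0 to 818 in neutrophils and 694 to 1159 in monocytes. The lowest monocyte value was that of TN2 tag_706, the monocyte library with the highest neutrophil markers. The part of neutrophil RNA in that value was not tested. The log2 difference was 0.83 ± 0.24 in counts, which is 0.37 above the median of all genes, and 1.60 ± 0.18 in TPM. This was the least stable call. It was lost without neutrophil library TN1 tag_191 (0.72 ± 0.28) or TN2 tag_706 (0.83 ± 0.27), and without monocyte library TN1 tag_191 (0.84 ± 0.32), TN1 tag_482 (0.81 ± 0.32), TN2 tag_367 (0.71 ± 0.28) or TN2 tag_1341 (0.75 ± 0.29).

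Cat, the peroxisomal enzyme catalase (chromosome 2, 103453849 to 103485160), was scarce in neutrophils. There it was at 2.56 and 8.49 TPM with TN1 and at 4.62, 2.48 and 7.83 TPM with TN2, from 55 to 172 estimated counts. Monocytes had 26.4 and 39.7 TPM with TN1 and 34.2, 32.4 and 21.0 TPM with TN2. The cell types did not overlap, and the log2 difference was 1.79 ± 0.49. Monocyte library TN1 tag_482, with the highest Cat level, was also the library with the most erythroid RNA, in which 5 of the 6 erythroid markers were above 0. Without that library the difference was 1.54 ± 0.55 and was not called. It was also not called without neutrophil library TN1 tag_191 (1.48 ± 0.50) or TN2 tag_367 (1.71 ± 0.54), or without monocyte library TN2 tag_367 (1.62 ± 0.54). The part of erythroid RNA in the Cat level was not tested.

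The peroxiredoxins gave the largest contrast within the list. Prdx1, the abundant cytosolic enzyme that reduces peroxide with thioredoxin (chromosome 4, 116685544 to 116700822), was at 38.8 and 41.1 TPM in TN1 neutrophils and at 49.2, 39.4 and 60.1 TPM in TN2 neutrophils. In monocytes it was at 1196 and 521 TPM with TN1 and at 575, 722 and 584 TPM with TN2. The lowest monocyte library was well above the highest neutrophil library. Prdx1 differed by 3.26 ± 0.27 (log2), and it was called in each of the 18 other settings, from 2.97 to 3.99.

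Prdx5, an enzyme found in mitochondria, peroxisomes and cytosol (chromosome 19, 6906697 to 6910106), showed the opposite order. It was at 1129 and 1050.3 TPM in TN1 neutrophils and at 1004, 1351 and 883 TPM in TN2 neutrophils, the most abundant of the 10 genes in each of these libraries. Levels in monocytes were 611 and 289 TPM with TN1 and 854, 536 and 888 TPM with TN2. The TPM ranges touched, with monocyte library TN2 tag_1341 just above neutrophil library TN2 tag_1341, and the CPM ranges did not overlap. Its log2 difference was -1.53 ± 0.28. Prdx5 shares exon bases with Trmt112 on the other strand, which reached 69.9 TPM, and Smart-seq2 does not keep the strand. The ratio of Prdx5 to Prdx1 within a library was 14.7 to 34.3 in neutrophils and 0.511 to 1.52 in monocytes.

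Txn1 and Txnl1 were lower in monocytes in normalised counts. Txn1, the cytosolic thioredoxin that hands electrons to peroxiredoxins and ribonucleotide reductase (chromosome 4, 57943373 to 57956411), was at 653 and 639 TPM in TN1 neutrophils and at 695, 806 and 571 TPM in TN2 neutrophils. Monocyte libraries had 344 and 157 TPM with TN1 and 339, 414 and 354 TPM with TN2. Neutrophils varied little and lay above all monocyte libraries. Txn1 differed by -1.92 ± 0.23 (log2), called in all 18 other settings (-2.21 to -1.18).

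Txnl1, a thioredoxin-like protein that associates with the proteasome (chromosome 18, 63661094 to 63708801), was at 84.7 and 98.7 TPM in TN1 neutrophils and at 44.0, 47.4 and 27.0 TPM in TN2 neutrophils. In monocytes it was at 54.5 and 37.2 TPM with TN1 and at 44.9, 49.1 and 55.8 TPM with TN2. TN1 neutrophils stood above all other libraries, and TN2 neutrophils overlapped with monocytes. Within TN2 the mean was 39.5 TPM in neutrophils and 49.9 TPM in monocytes, but 112 and 72.9 in CPM. The log2 difference between the cell types was -1.09 ± 0.22 in counts and -0.32 ± 0.25 in TPM, where it was not called. Txnl1 shares exon bases with Wdr7 on the other strand, which was at 8.84 TPM or less.

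The reductases behaved differently from each other. Txnrd1, the cytosolic selenoprotein that reduces thioredoxin (chromosome 10, 82833951 to 82897712), was at 197 and 93.0 TPM in TN1 neutrophils and at 87.3, 124 and 56.9 TPM in TN2 neutrophils. Levels in monocytes were 91.1 and 31.2 TPM with TN1 and 41.4, 52.2 and 59.7 TPM with TN2. The TPM ranges overlapped, and the CPM ranges (255 to 722 and 85.9 to 213) did not. In both cell types the tag_191 library was the highest. Txnrd1 differed by -1.81 ± 0.35 (log2) in counts and -1.03 ± 0.36 in TPM, called on both scales.

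Gsr, glutathione reductase (chromosome 8, 33652523 to 33698163), was at 21.4 and 11.9 TPM in TN1 neutrophils and at 10.6, 10.7 and 12.6 TPM in TN2 neutrophils. Monocyte libraries had 18.7 and 1.54 TPM with TN1 and 22.3, 16.9 and 13.1 TPM with TN2. The value of 1.54 TPM rests on 27 estimated counts in TN1 tag_482, where other libraries held 196 to 496. The cell types overlapped, and the difference of -0.52 ± 0.55 was not called. Without monocyte library TN1 tag_482 it was -0.10 ± 0.41, and without monocyte library TN1 tag_191 it was -1.80 ± 0.48 and was called.

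The make-up of the 10 genes differed between the cell types more than their sum. The summed level was 2512 to 3305 TPM in neutrophils and 2940 to 4571 TPM in monocytes. Prdx5 made up 35.2% to 40.9% of the sum in neutrophils and 9.81% to 19.9% in monocytes, and Txn1 22.7% to 26.1% and 5.33% to 10.5%. Gpx1 made up 15.8% to 28.1% in neutrophils and 37.2% to 52.8% in monocytes, and Prdx1 1.19% to 2.39% and 12.6% to 26.6%. For each of these shares the cell types did not overlap. Shares of a sum are tied to each other, so they restate the levels above as proportions.

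**Figure D2:**
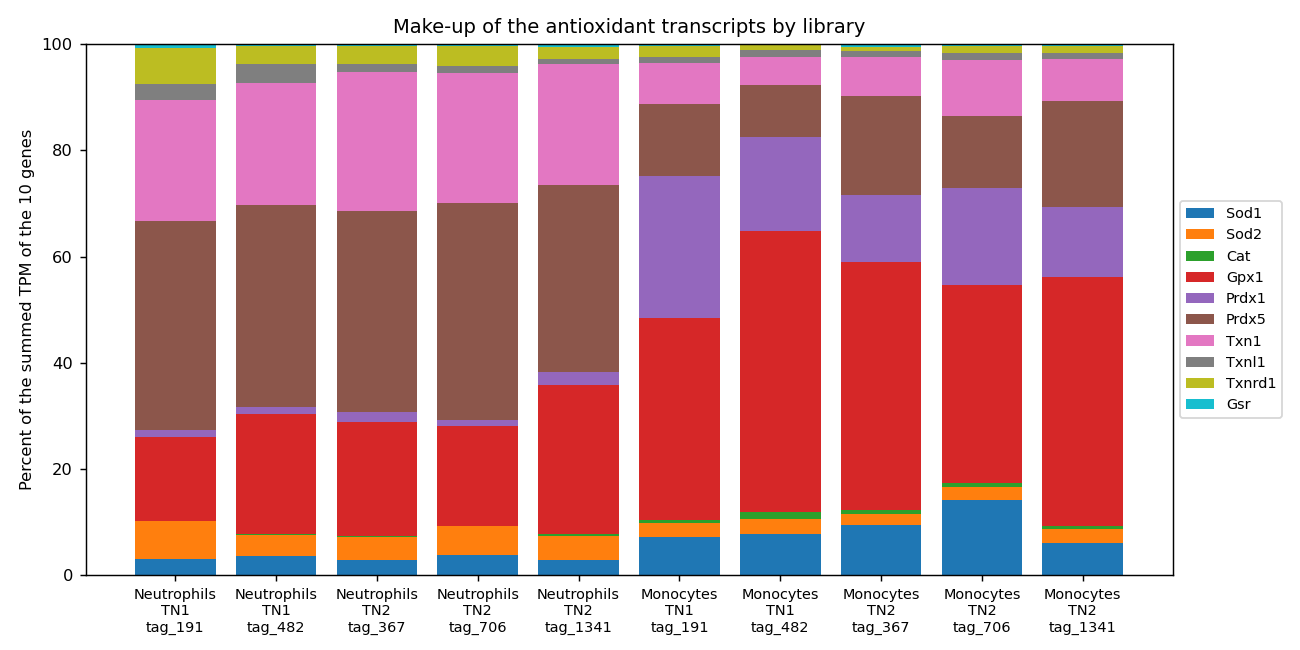
Share of each gene in the summed TPM of the 10 genes (vertical axis, percent), 1 bar per library. Prdx5 and Txn1 together fill most of each neutrophil bar, and Gpx1 and Prdx1 most of each monocyte bar.

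In order of level in neutrophils, Prdx5 stood above Txn1 without overlap, Txn1 and Gpx1 overlapped, and Gpx1 stood above Sod2. From Sod2 through Txnrd1, Sod1 and Txnl1 to Prdx1 each gene's range overlapped with that of the next. Gsr lay below Prdx1 and Cat below Gsr, both without overlap. In monocytes Gpx1 came first without overlap, and the ranges of Prdx1, Prdx5, Sod1 and Txn1 overlapped in turn. Sod2 lay below Txn1, and the ranges from Sod2 through Txnrd1, Txnl1 and Cat to Gsr each touched the next.

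The second comparison asks whether the genes differ between lungs with the low and the highly metastatic tumour. In neutrophils (TN2 minus TN1, 3 against 2 libraries) the edgeR test called 0 of 13384 genes (0%), with 625 at an unadjusted p below 0.05, and DESeq2 called 87. None of the 10 genes was called by edgeR, and DESeq2 called 1, Txnl1. In CPM 2 of the 10 genes did not overlap between the tumours, 1 lower (Txnl1) and 1 higher (Prdx1), where 17.7% of all genes did not (5.91% lower and 11.8% higher). The median log2 difference was 0.08 over the 10 genes and 0.22 over all genes.

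Txnl1 was at 227 and 269.6 CPM in TN1 neutrophils and at 106, 140.5 and 88.4 CPM in TN2 neutrophils. Both TN1 libraries lay above the 3 TN2 libraries. The log2 difference was -1.15 ± 0.30 in counts and -1.23 ± 0.35 in TPM, and with single libraries left out it lay between -1.36 and -1.01. The authors' deposited table gave -1.23 for this gene. Txnl1 was among the genes known from earlier results when the list was made, so this difference is a description only. The lowest library, TN2 tag_1341, was the neutrophil library with the highest monocyte marker sum. The 8 markers, above 0 in every neutrophil library, summed to 10143 TPM there. They summed to 3264 and 4128 TPM in the other TN2 libraries and to 4081 and 6247 TPM in TN1. Txnl1 was at 27.0 TPM in that library and at 37.2 to 55.8 TPM in the monocyte libraries. Without TN2 tag_1341 the difference was -1.01 ± 0.33. The part of monocyte RNA in these values was not tested.

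Prdx1 in neutrophils was at 40.3 and 54.2 CPM with TN1 and at 54.7, 57.1 and 89.6 CPM with TN2. The groups were separated only by the gap from 54.2 to 54.7, and in TPM they overlapped. The log2 difference was 0.51 ± 0.35, and without TN2 tag_1341, the highest library, it was 0.24 ± 0.35. Txnrd1 had a log2 difference of -0.62 ± 0.47, which was 0.01 ± 0.57 without neutrophil library TN1 tag_191. The other 7 genes had log2 differences between -0.10 (Sod2) and 0.33 (Gpx1), each within 1 SE of 0. Leaving out single libraries turned the sign of 4 of them, Cat (-0.70 to 1.11), Sod2 (-0.46 to 0.41), Sod1 (-0.25 to 0.26) and Prdx5 (-0.13 to 0.24). Cat was at 1.11 ± 0.79 without neutrophil library TN1 tag_482 and at -0.70 ± 0.66 without TN2 tag_1341. Where a TN1 library is left out, 1 library stands against 3, and it is assumed to vary like those of the other groups.

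In monocytes (TN2 minus TN1) edgeR called 0 of 13384 genes (0%), with 379 at an unadjusted p below 0.05, and DESeq2 called 22. None of the 10 genes was called by either tool. One gene, Prdx1, did not overlap in CPM, lying lower with TN2, where 20.1% of all genes did not overlap and 7.73% lay lower. It was at 885 and 481.8 CPM with TN1 and at 418, 445 and 410.4 CPM with TN2. The gap between the groups ran from 445 to 481.8 CPM, and the size of the difference rested largely on TN1 tag_191. The log2 difference was -0.69 ± 0.34, and it was -0.23 ± 0.42 without TN1 tag_191 and -1.14 ± 0.40 without TN1 tag_482. On the TPM scale, where TN1 tag_482 lay below the TN2 libraries, it was -0.34 ± 0.36 and the groups overlapped. The neutrophil markers moved with this comparison. They summed to 179.5 and 336 TPM in TN1 monocytes and to 422, 8140 and 2685 TPM in TN2 monocytes, with all 8 above 0 in each library but TN1 tag_482, where Ly6g was at 0. Prdx1 is lower in neutrophils, and the part of neutrophil RNA in these values was not tested.

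The other 9 genes in monocytes had log2 differences from -0.56 ± 0.66 (Cat) to 0.54 ± 0.79 (Gsr). The sign of 6 of them turned with single libraries left out. Gsr moved the most, to 3.02 ± 0.82 without TN1 tag_191 and to -0.38 ± 0.63 without TN1 tag_482, and was called in neither case. Txnrd1 (-0.55 ± 0.47) was 0.20 ± 0.56 without TN1 tag_191, and Txn1 (0.24 ± 0.31) was -0.22 ± 0.38 without TN1 tag_482. Gpx1 ranged from -0.36 to 0.087, Sod1 from -0.021 to 0.32 and Prdx5 from -0.000135 to 0.92. Txnl1, at -0.21 ± 0.30 in counts and 0.14 ± 0.35 in TPM, differed by less than 1 SE on either scale. With 2 TN1 libraries, of which tag_482 had few genes and a high mitochondrial share, these monocyte values are imprecise.

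The difference between the tumour effects (monocytes minus neutrophils) was tested as an interaction. It was called for 0 of 13384 genes (0%) with edgeR, with 472 at an unadjusted p below 0.05, and for 30 with DESeq2. None of the 10 genes was called. The interaction was -1.19 ± 0.49 for Prdx1 and 0.95 ± 0.43 for Txnl1, and between -0.52 (Cat) and 0.33 (Gsr) for the other 8. That of Gsr was 2.92 ± 0.93 without monocyte library TN1 tag_191, and was not called. A different response of the cell types to the tumour was therefore not shown for any of these genes.

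**Figure D3:**
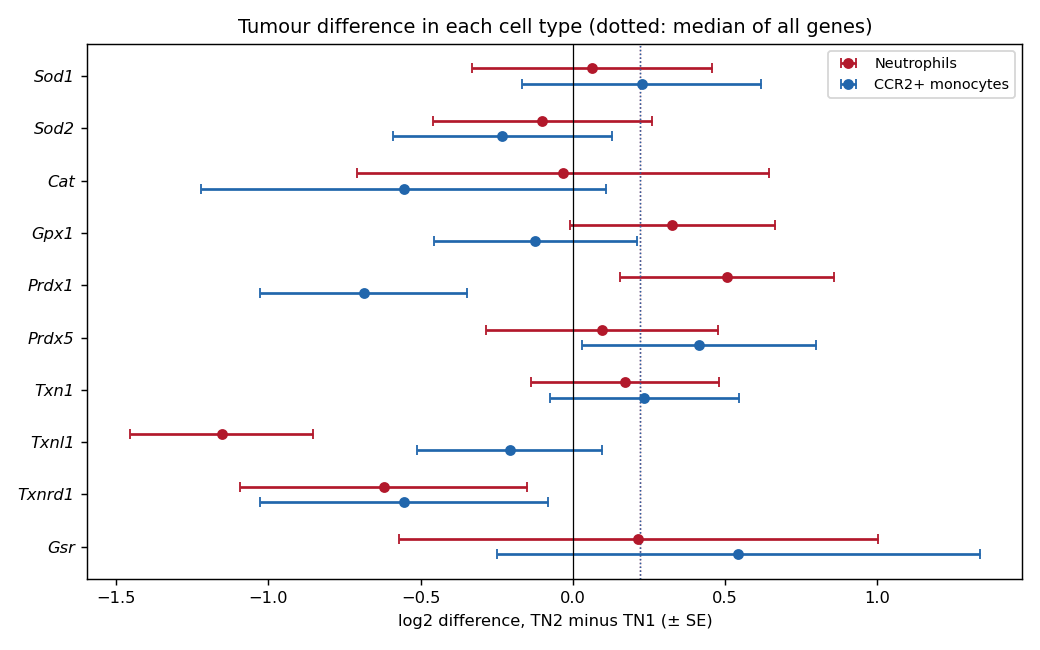
Log2 difference TN2 minus TN1 (horizontal axis, ± SE from the edgeR model, 3 against 2 libraries) of the 10 genes in neutrophils and monocytes. Txnl1 in neutrophils is the farthest from 0 at -1.15, Prdx1 has opposite signs in the cell types (0.51 and -0.69), and the dotted lines mark the median of all genes, 0.22 in both.

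The use of transcripts was examined as a measure that the choice of genes did not use. Of the 10 genes, 3 had more than 1 annotated transcript with reads, and the share of the most abundant transcript in the gene's TPM was compared between the cell types. Prdx5-201, which starts at the gene's upstream end and is the longest of its coding transcripts, made up 46.6%, 59.2%, 54.3%, 56.0% and 53.1% of Prdx5 in neutrophils (TN1 tag_191 and tag_482, then TN2 tag_367, tag_706 and tag_1341). In monocytes, in the same order, it made up 75.2%, 68.0%, 70.7%, 67.8% and 63.7%. The cell types did not overlap. The means were 53.8% ± 4.63 and 69.0% ± 4.25 (SD, n = 5 each), a difference of 15.2 percentage points. An exact two-sided permutation test gave p = 0.00794, the smallest p that 5 against 5 libraries allow. It was 0.0238 after Benjamini-Hochberg adjustment over the 3 genes. That test treats the libraries as unpaired. With the tag as a block, an exact sign-flip test gave an adjusted p of 0.188, where 5 pairs cannot give a raw p below 0.0625.

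The remainder of Prdx5 lay mainly in Prdx5-203, a coding transcript whose start lies 1805 bases downstream, with 39.5% in neutrophils and 29.2% in monocytes on average. Prdx5-204, which starts 489 bases downstream, made up 4.14% and 0.563%, and a transcript annotated as a retained intron 2.55% and 1.17%. The shares are kallisto's division of reads among overlapping transcripts, from 1864 to 10588 estimated counts per library. Their SD does not include the error of that division, and read coverage along the gene was not examined. As shares of estimated counts the difference was 12.4 points. Trmt112 overlaps Prdx5 on the other strand, and whether its reads enter one Prdx5 transcript more than another was not tested.

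Prdx1-204, the most abundant Prdx1 transcript, gave no such separation, at 38.1% ± 6.15 in neutrophils and 37.6% ± 1.99 in monocytes (SD, n = 5 each, exact permutation p = 0.937, adjusted p = 1). Gsr-201 made up 100% of Gsr except in neutrophil library TN1 tag_191, where it was 38.3% and the short transcript Gsr-203 made up the rest. The level of 21.4 TPM in that library includes Gsr-203.

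**Figure D4:**
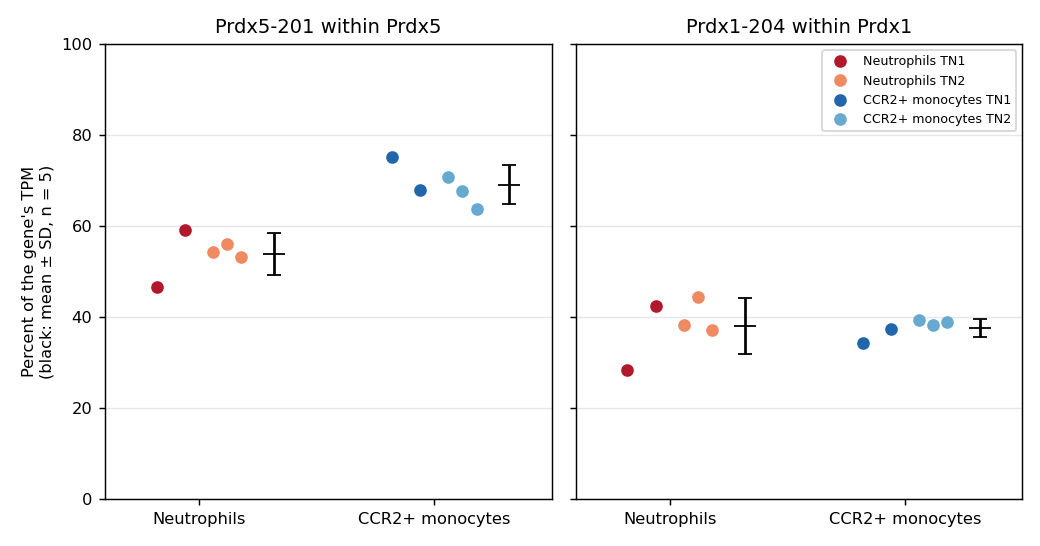
Share of the most abundant transcript in its gene's TPM (vertical axis, percent) for Prdx5 and Prdx1, 1 point per library, with mean ± SD (n = 5) in black. For Prdx5-201 the neutrophil points (46.6% to 59.2%) lie below the monocyte points (63.7% to 75.2%), and for Prdx1-204 they overlap.

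To place the 10 genes, 60 further genes of the same systems were examined in 10 lists, of which 57 could be tested. Between the cell types 12 were higher and 13 lower in monocytes (43.9% called, beside 27.9% of all genes), with a median log2 difference of 0.25 beside 0.46 over all genes. These lists too were made with earlier results known. Adjusted p-values below are from edgeR over all genes.

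Among peroxiredoxins and their repair enzymes 3 of 8 were higher and 2 lower in monocytes. Prdx2, the peroxiredoxin abundant in red cells, averaged 14.2 ± 5.10 CPM in neutrophils, with 109 ± 23.8 in monocytes (SD, n = 5 each, log2 difference 3.01 ± 0.35, edgeR adjusted p = 0.000313). Prdx4, the peroxiredoxin of the endoplasmic reticulum, was at 1.91 ± 1.84 and 27.8 ± 9.29 CPM (4.42 ± 0.64, edgeR adjusted p = 0.000904). These moved with Prdx1. Prdx6, which uses glutathione and has the highest mean TPM of this list, averaged 1071 ± 236 CPM in neutrophils against 455 ± 75.3 in monocytes (-1.27 ± 0.23), and so was lower in monocytes like Prdx5. Sesn2, a stress-induced sestrin, was lower in monocytes by a log2 difference of -3.32 ± 0.26.

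Of the other 10 genes of the thioredoxin system 2 were higher and 2 lower. Txn2, the mitochondrial thioredoxin, averaged 24.3 ± 13.6 CPM in neutrophils and 111 ± 31.5 in monocytes (2.50 ± 0.36, edgeR adjusted p = 0.000840), opposite to the cytosolic Txn1. Txnip, the protein that binds and inhibits thioredoxin, averaged 2033 ± 757 CPM in neutrophils and 131 ± 98.8 in monocytes (-4.10 ± 0.47, edgeR adjusted p = 0.000286). Txn1 and its inhibitor were thus both more abundant in neutrophils. Glrx, the cytosolic glutaredoxin that reduces glutathione-bound proteins, was at 1564 ± 402 and 159 ± 63.1 CPM (-3.36 ± 0.38).

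In the NRF2 list 0 of 8 genes were higher and 2 lower in monocytes. Nfe2l2 itself averaged 1618 ± 381 CPM in neutrophils and 413 ± 92.2 in monocytes (-1.94 ± 0.25, edgeR adjusted p = 0.000464). Hmox1, the heme oxygenase gene, with the highest mean TPM of the list over the 10 libraries, ranged from 101 to 609.8 CPM in neutrophils and from 247 to 2676 CPM in monocytes and did not pass (edgeR adjusted p = 0.0747). Slc7a11, the cystine transporter chain that feeds glutathione synthesis, was the only 1 of 5 genes of its list that was called, at 607 ± 362 and 109 ± 51.0 CPM (-2.47 ± 0.38, edgeR adjusted p = 0.00117). Its partner chain Slc3a2 did not pass (edgeR adjusted p = 0.198).

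Of 4 methionine sulfoxide reductases 2 were lower in monocytes, among them Msrb1 (-2.59 ± 0.29), and of 6 NADPH-supplying enzymes tested 2 were higher and 2 lower, among them the pentose phosphate enzyme Taldo1 (-1.66 ± 0.24). Of 7 glutathione S-transferases 3 were higher and 1 lower. Gstp1 (2.45 ± 0.30) and Gsto1 (2.62 ± 0.39) were higher and the microsomal Mgst1 (-1.18 ± 0.27) was lower in monocytes. Mgst1 was not called on the TPM scale (-0.46 ± 0.23) or without monocyte library TN1 tag_482 (-0.98 ± 0.33). None of the 3 glutathione peroxidases tested passed, including Gpx4, which reduces lipid peroxides (257 ± 63.7 and 177 ± 15.0 CPM, edgeR adjusted p = 0.0883). Ccs, the copper chaperone of Sod1, was higher in monocytes (2.18 ± 0.64, edgeR adjusted p = 0.0291). That call was lost without neutrophil library TN1 tag_191 (adjusted p = 0.0741 with edgeR) and without monocyte library TN1 tag_191 (0.0505), TN1 tag_482 (0.0810) or TN2 tag_367 (0.0767).

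**Figure D5:**
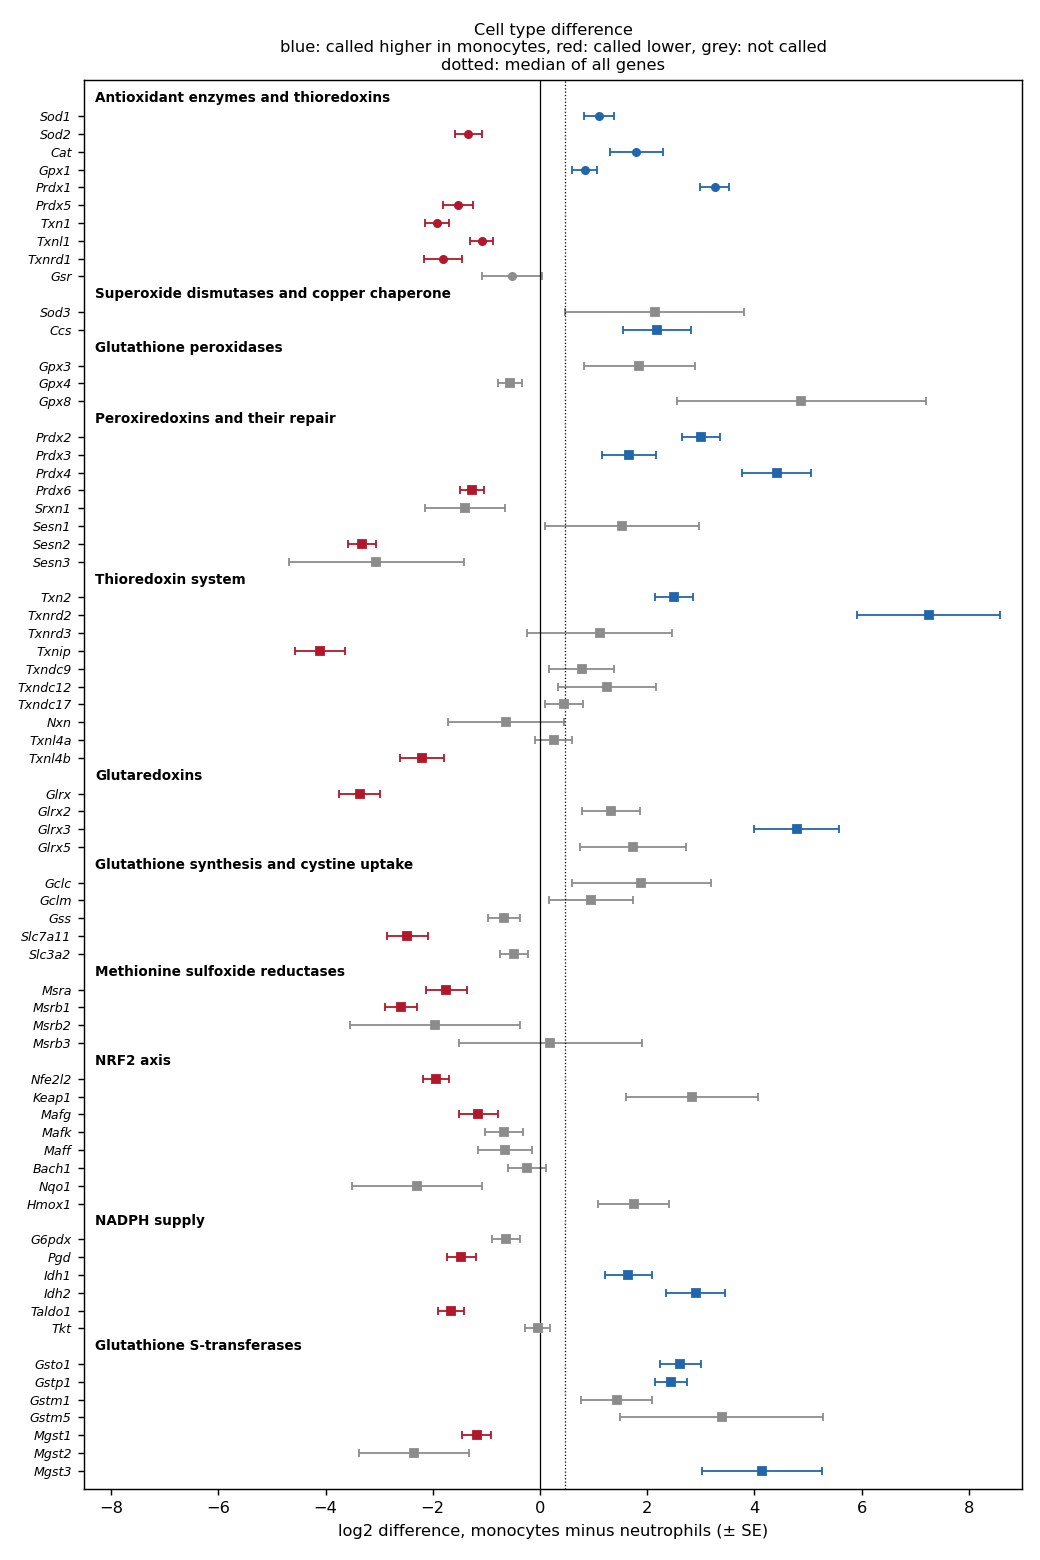
Log2 difference monocytes minus neutrophils (horizontal axis, ± SE from edgeR, 5 libraries per cell type) of the 10 genes (circles) and the 57 tested further genes by list (squares). Blue marks genes called higher and red genes called lower in monocytes, and the dotted line marks the median of all genes at 0.46.

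The tumour comparisons called 0 of the 57 further genes in neutrophils and 0 in monocytes with edgeR, with 4 and 1 at an unadjusted p below 0.05. Their median log2 differences were 0.02 and 0.07, beside 0.22 over all genes in both cell types. With DESeq2 the counts were also 0.

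For 8 of the 10 genes, the gene outside the 10 with the most similar pattern is given. It was taken by Pearson correlation of log2(CPM + 1) over the 10 libraries, and the 10 genes were not compared with each other. As the libraries form 2 clusters by cell type, these values mainly rank genes with a similar cell type difference, and no p-value is given. The nearest gene was Slc7a11 for Txnrd1 (0.990), Nudt18 for Txn1 (0.994), Hnrnph2 for Sod2 (0.989) and Rpl37a for Prdx1 (0.987). It was Flad1 for Gsr (0.972), March5 for Gpx1 (0.971), Ddr1 for Sod1 (0.969) and Gm11520 for Txnl1 (0.949). Txnrd1 was the only 1 of these 8 whose nearest gene was among the 60 further antioxidant genes.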

How the data were processed

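RNA of 10 libraries was amplified by Smart-seq2, which uses no molecular barcodes, and sequenced on an Illumina instrument, per the labels' protocols. Per the series' design text, the authors aligned reads to GRCm38 transcripts with kallisto 0.42.3. Per the file headers, the deposited tables give estimated counts per transcript and TPM, normalized within a library for length and depth. The authors' deposited comparison tables, made with AltAnalyze per the labels, give a log2 mean per group and p-values, whose test is not given in the sources used here. For the 10 genes these means equalled the mean of log2(TPM + 1).

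From the files, 81839 of 85276 transcripts (96.0%) were matched to GENCODE M21 and summed to genes. Unmatched transcripts held 1.94% to 3.59% of counts and were left out. Gene counts were rounded and fitted with edgeR 4.0.16 as 1 model of all groups (filterByExpr with a total of at least 10, TMM, quasi-likelihood test, 13384 genes, 6 residual degrees of freedom, biological coefficient of variation 0.887) in R 4.3.3. Benjamini-Hochberg adjustment ran over all genes with a threshold of 0.05. CPM used TMM library sizes. The fit was tested on simulated data for the cell type comparison only, with changes larger than those of most of the 10 genes. The tumour comparisons and the interaction were not simulated. Transcript shares were compared by exact permutation (Python 3.11.15) for genes with at least 20 counts in each library. Alternatives were RLE size factors, no filter, DESeq2 1.42.0, limma 3.58.1 on log2(TPM + 1) and log2(TPM + 0.1) for genes with a mean of at least 1 TPM, protein-coding transcripts, a replicate block and leaving out each library. PCR copies remain in the counts, and the range of depth over the libraries is given above. The members and all lists were chosen with earlier results of these data known. Named were the 10 genes, at most the 12 called further genes with the smallest p per comparison, the further gene of each list with the highest mean TPM, and the 1 nearest gene by correlation, which for Prdx5 and Cat is not reported here.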

Additional observations from a re-analysis of the deposited data

Results flagged for a closer look

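In the 20 groups of 5 libraries tested (10 genes in 2 cell types, CPM), 5 single libraries lay apart by Dixon's ratio of gap to range, whose critical value for 5 samples is 0.710. Chance flags about 1 in 20 groups. Prdx1 was at 885 CPM in monocyte library TN1 tag_191 (ratio 0.849), above the other monocyte libraries. Txnrd1 was at 213 CPM in the same library (0.712), also the highest. Txn1 was at 113 CPM in monocyte library TN1 tag_482 (0.745), the lowest of its cell type, and at 852 CPM in neutrophil library TN2 tag_706 (0.719), the highest. Gpx1 was at 694 CPM in monocyte library TN2 tag_706 (0.742), the lowest monocyte value.

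The tumour difference of Prdx1 had opposite signs in the cell types. In CPM the tumours did not overlap in either, as for 17.7% of all genes in neutrophils and 20.1% in monocytes, and in TPM they overlapped in both. The interaction was -1.19 ± 0.49 (log2). The interaction was not called by edgeR after adjustment over all genes. On the log2(TPM + 1) scale it was -0.62 ± 0.50, and without monocyte library TN1 tag_191 it was -0.61 ± 0.54.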

How the results depend on the processing

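Between the cell types the calls of Prdx1, Prdx5, Txn1 and Txnrd1 held in all 18 settings, those of Sod2 in 16, Txnl1 in 15, Cat and Sod1 in 14 and Gpx1 in 11, with 6 to 9 of the 10 genes called with single libraries left out. Over all genes 2682 to 3861 were called with single libraries left out, 5260 by DESeq2 and 5599 by limma on log2(TPM + 1), of which 4407 were higher and 1192 lower, against 2070 and 1663 in the main fit with edgeR. Of the further genes 21 to 28 were called with single libraries left out. In the neutrophil tumour comparison the 0 calls over all genes became 2 without the filter, 87 with DESeq2, 1 and 3 with limma on log2(TPM + 1) and log2(TPM + 0.1), and 0 to 506 with single libraries left out (506 without neutrophil library TN1 tag_191). Of the 10 genes, 1 was called by DESeq2. In monocytes the 0 calls became 22 with DESeq2 and 0 to 128 with single libraries left out (128 without monocyte library TN1 tag_191). The interaction gave 1 without the filter, 30 with DESeq2 and 0 to 372 with single libraries left out (372 without neutrophil and 71 without monocyte library TN1 tag_191). Without neutrophil library TN1 tag_191, 2 of the further genes (0 to 2 over the libraries left out) were called in the neutrophil comparison and in the interaction, Txndc12 and Glrx3, named after their values were seen. Without a TN1 library 1 library stands against 3, and it is assumed to vary like those of the other groups. The cause was not tested. Leaving out both tag_482 libraries, chosen after seeing the data, lost the calls of Sod1 (1.14), Gpx1 (0.87) and Txnl1 (-1.02).

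Libraries of the same tag were checked for pairing. Their deviations correlated at 0.0900, 0.0900, -0.0761, 0.377 and 0.352, and 4 of 5 libraries correlated best with their own tag. The values of tag_191 and tag_482 are equal by construction, since the TN1 libraries of a cell type deviate from their mean in mirror image. Pairing by tag was therefore not settled, and the tag entered only as the replicate block, an alternative setting. With the replicate block 3335 genes and 9 of the 10 were called between the cell types. For the Prdx5-201 share the replicate block left the difference at 15.2 points with an adjusted p of 0.188 in an exact sign-flip test, which with 5 pairs cannot give a raw p below 0.0625. With single libraries left out the difference was 13.4 to 16.6 points.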
